A study of Mus musculus with 6 samples.

Results

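Respiratory complex I, NADH:ubiquinone oxidoreductase, was followed here through 42 genes whose array symbol begins with Nduf, out of 10830 genes measured. For each gene the probe set (a group of short array probes read as 1 value) of highest mean was used, and a gene was kept where the mean intensity of at least 1 title group reached 50. Of 44 Nduf symbols that stood alone on a probe set, 2 lay below this level, Ndufb4 and Ndufa4l2. Ndufa4l2 had means of 21.8 in the FLX-titled and 22.5 in the VEH-titled arrays, and the lowest gene kept, Ndufb1, had 178.4 and 187.5. The probe set named for Ndufb4 alone had means of 4.92 and 4.64. Probe sets that join Ndufb4 to Ndufb4b and Ndufb4c had 13831 and 14758 on 1 and 2831 and 2705 on the other. The 42 genes are 33 subunits of the complex, 8 Ndufaf assembly factors and Ndufa4, which carries the family's name but is a subunit of complex IV, cytochrome c oxidase. A further 7 kept probe sets join an Nduf symbol to another gene or to a pseudogene and were left out. Among them, Ndufa11 (with Ndufa11b) had means of 4048 and 4471, and Ndufs6 (with Ndufs6b) 9930 and 10228.

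The RNA came from 6 translating ribosome affinity purifications (TRAP) of cortex, each hybridised to its own Affymetrix array. All mice carried the Glt25d2 bacTRAP transgene, line DU9, on a background backcrossed from FVB to C57BL/6 for 3 to 5 generations. In this line control sequences of Glt25d2 (current symbol Colgalt2) place a tagged ribosomal protein in a class of layer 5 pyramidal neurons, and the tagged ribosomes are pulled down with the messages they translate. The mice of the 3 FLX-titled samples received fluoxetine, a serotonin reuptake inhibitor, at 0.167 mg/ml in drinking water with 1% saccharine, and the 3 VEH-titled ones 1% saccharine alone, for 15 to 18 days. The description field of every sample names the opposite treatment to its title, source and treatment fields. Groups follow the titles, and if the descriptions were right the sign of every FLX minus VEH difference would turn. Neither the age of the mice nor the number pooled for a purification is given. They call the samples biological replicates, and where purifications were not from separate mice the p-values measure only the spread between these arrays.

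Complex I takes electrons from NADH and passes them along flavin and iron-sulphur clusters to ubiquinone, and it pumps protons across the inner mitochondrial membrane. Neurons rely heavily on the ATP that this gradient yields. The nuclear genes encode core subunits that carry the redox centres and a larger set of accessory subunits, which sit in the NADH-binding N module, the quinone-binding Q module, and the proximal and distal parts of the membrane arm. Assembly factors build the modules and are not part of the finished enzyme.

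The arrays numbered 1 in the titles stood apart from the other 4 across the whole table. The first principal component of the 19073 probe sets kept held 60.0% of the variance, with loadings of 0.61 and 0.54 on FLX 1 and VEH 1 and between -0.32 and -0.26 on the other 4. No label says what the replicate number stands for. Array VEH 3 was lowest in the markers of glial cells, as given below. The 9 of 10 layer 5 projection neuron markers that were kept summed to between 40691 and 52153 in the FLX-titled and between 44478 and 56758 in the VEH-titled arrays. Medians per array lay between 23.0 and 23.4. With 6 arrays, their number sets the precision of each value below.

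Across the 6 arrays the complex I subunits were high on 3 and low on 3, and the 3 high arrays crossed the treatment groups. The median subunit deviated from its own 6-array mean by 0.10, -0.12 and -0.12 (log2 scale) on FLX 1, FLX 2 and FLX 3, and by 0.12, -0.12 and 0.078 on VEH 1, VEH 2 and VEH 3. The high arrays were thus both arrays numbered 1 and VEH 3. Over all genes the same median lay between -0.015 and 0.027. The layer 5 projection neuron markers had their 3 highest sums on the same arrays, with 52153 on FLX 1, 56758 on VEH 1 and 51827 on VEH 3, against 40691 to 44805 on the other 3. In RNA of a purification like this, fewer cells of a type and less RNA per cell cannot be told apart. The part of this difference in the complex I values was not tested.

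**Figure D1:**
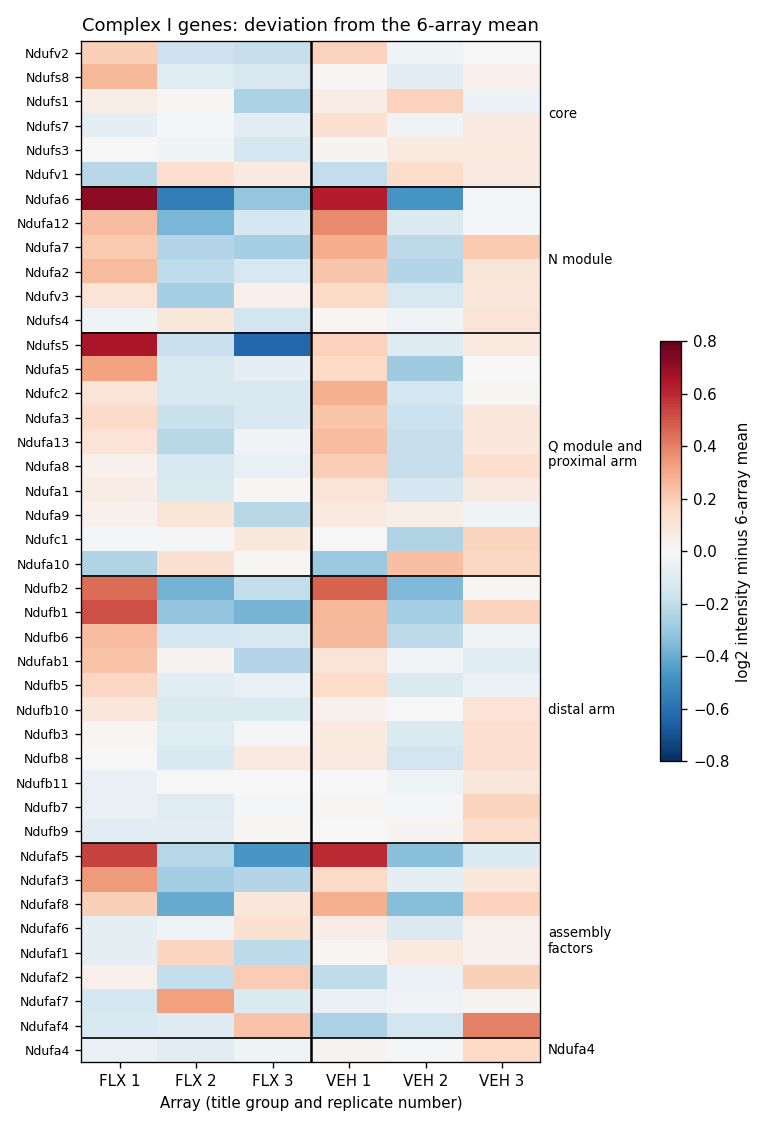
Deviation of each of the 42 genes from its own mean over 6 arrays (colour, log2 scale), with 1 row per gene grouped by its place in complex I and 1 column per array, FLX-titled left and VEH-titled right. FLX 1 and VEH 1 are the reddest columns, and Ndufa6, Ndufs5 and Ndufaf5 hold the deepest colours, with deviations of up to 0.72, 0.65 and 0.60.

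The first question is whether fluoxetine alters the translated complex I messages of these neurons. The subunits had slightly lower intensities in the FLX-titled arrays, and no gene passed the test. Of the 33 subunits, 28 had a negative FLX minus VEH difference, with a median of -0.087 on the log2 scale, where the median of all genes was -0.0068 and 52.2% of all genes were negative. The subunit differences ran from -0.19 to 0.085. The 9 layer 5 projection neuron markers that were kept had a median of -0.11, and all 9 were negative. The 8 assembly factors split into 4 negative and 4 positive, with a median of -0.039. In limma 0 of 42 genes were called (an adjusted p under 0.05), where 0% of all genes were called in either direction, and 0 had an unadjusted p under 0.05, a level that 0.591% of all genes reached. With the replicate number as a block the counts were again 0 and 0, with 3.41% of all genes at that unadjusted level, and the smallest unadjusted p of a member was 0.135. The 95% confidence interval of the difference lay within 2-fold in either direction for 41 of 42 genes, and for 10394 of all 10830 genes. The exception among the 42 was the N-module subunit Ndufa6, with an interval from -1.02 to 0.82. These intervals, and the SE values given below for FLX minus VEH, are from the fit without the block. That fit counts the spread between replicate numbers as error. With the block the SE of Ndufa6 was 0.12 in place of 0.39, and the median SE of the 42 genes was 0.10 in place of 0.16.

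Among the core subunits, Ndufv1 holds the flavin and the NADH site. It had an intensity of 18613, 23928 and 22855 on FLX-titled arrays 1, 2 and 3, against 18947, 24050.5 and 22847 on the VEH-titled ones. Both groups had 1 low array, the one numbered 1, and otherwise overlapped, with a difference of -0.011 ± 0.16 (log2, SE). Its partner Ndufv2, an iron-sulphur subunit, had 17346, 13538 and 13345 on FLX-titled arrays 1, 2 and 3, against 17253, 14794 and 15229 on the VEH-titled ones. It was highest on the arrays numbered 1 in both groups, and the difference was -0.10 ± 0.15. Ndufs1, the largest iron-sulphur subunit, had 5013, 4861 and 4059 on FLX-titled arrays 1, 2 and 3, against 5039.9, 5491 and 4674 on the VEH-titled ones. FLX 3 was its lowest array and VEH 2 its highest, and the difference of -0.13 ± 0.14 was the third lowest among the subunits.

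In the Q module, Ndufs3 helps to form the quinone pocket. Its intensity was 10557, 10360.4 and 9614 on FLX-titled arrays 1, 2 and 3, against 10758, 11182 and 11188 on the VEH-titled ones. All 3 FLX-titled values lay below all 3 VEH-titled ones, with a difference of -0.12 ± 0.12 and an interval from -0.40 to 0.16. Ndufs7, which carries the cluster that hands electrons to ubiquinone, had 22294, 23347 and 22140.0 on FLX-titled arrays 1, 2 and 3, against 25499, 23037 and 24657 on the VEH-titled ones. FLX 2 lay above VEH 2, so the groups overlapped, and the difference was -0.11 ± 0.12. Ndufs8, a further iron-sulphur subunit, had 21116, 16364 and 16020.4 on FLX-titled arrays 1, 2 and 3, against 17659.6, 16484 and 18007 on the VEH-titled ones. FLX 1 alone stood above the other 5 arrays, and the difference was 0.026 ± 0.15.

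No accessory subunit was called either. Ndufa7 of the peripheral arm had the most negative difference, -0.19 ± 0.20, and its intensity was 5765, 4237 and 4142 on FLX-titled arrays 1, 2 and 3, against 6098, 4318 and 5752 on the VEH-titled ones. Here FLX 1, VEH 1 and VEH 3 were high and the other 3 low, so the groups overlapped. Ndufa12 of the N module had 18032, 11795 and 13748 on FLX-titled arrays 1, 2 and 3, against 19710.0, 14014 and 15107 on the VEH-titled ones. By this brightest probe set it was lower in the FLX-titled array of all 3 pairs, with a difference of -0.17 ± 0.21. Its other kept probe sets were higher in the FLX-titled array of pair 1, by 0.089 and 0.11, and had differences of -0.087 and -0.022. At the other end, Ndufa5 of the Q module had 30210.0, 22205 and 22864 on FLX-titled arrays 1, 2 and 3, against 26902, 19846 and 24059 on the VEH-titled ones and a difference of 0.085 ± 0.18. The membrane subunit Ndufc1 had 13939, 14030.0 and 14972 on FLX-titled arrays 1, 2 and 3, against 14152, 11969.5 and 15956 on the VEH-titled ones and 0.038 ± 0.15, with VEH 2 lowest and VEH 3 highest. Ndufa4 of complex IV had 5839, 5729 and 5938 on FLX-titled arrays 1, 2 and 3, against 6166, 6007 and 6792 on the VEH-titled ones. Its groups did not overlap, and the difference was -0.11 ± 0.12. Ndufa4 and Ndufs3 were the 2 genes of 42 with no overlap, both lower in the FLX-titled arrays, which is 4.76% where 1.98% of all genes were lower in this way, and 0 were higher, where 1.63% were.

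Set pair by pair, by the replicate number in the titles, the lower subunit values belonged mainly to pair 3. The median difference of the 33 subunits was -0.027 in pair 1, -0.0073 in pair 2 and -0.16 in pair 3. All but 1 of the subunits were negative in pair 3, 32 of 33, against 22 in pair 1 and 18 in pair 2. The exception was Ndufv1, at 0.00050. Over all genes, 50.1% were negative in pair 3, with a median of -0.00081. Of the 8 assembly factors, 6 were negative in pair 3, 5 in pair 1 and 3 in pair 2. The most negative value in pair 3 belonged to Ndufs5, a subunit on the outer face of the membrane arm. Its difference was 0.47, -0.072 and -0.71 in pairs 1, 2 and 3. A brighter probe set that joins Ndufs5 to the pseudogene Ndufs5-ps had 0.23, 0.040 and -0.36. Of all 42 genes, 12 were lower in the FLX-titled array of all 3 pairs and 0 were higher in all 3, where 13.2% and 10.9% of all genes were. Without pair 3 the subunit median was -0.021, nearer to that of all genes, and with any 1 array left out it ran from -0.14 to -0.025.

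**Figure D2:**
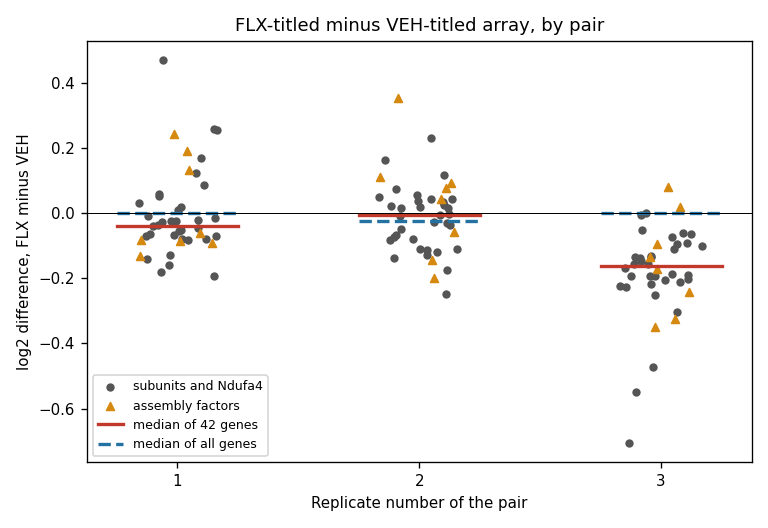
FLX minus VEH log2 difference (vertical axis) of the 42 genes within each pair of arrays that share a replicate number (horizontal axis), with assembly factors as triangles, the median of the 42 genes as a solid line and the median of all genes as a dashed line. In pair 3 nearly all points lie below 0, and in pairs 1 and 2 they lie on both sides.

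Glial markers also differed within pair 3. All 12 astrocyte markers were kept, and 0 of them was lower in FLX 3 than in VEH 3, with a median difference of 0.78. The medians were 0.54 for 9 of 10 oligodendrocyte markers and 0.67 for 7 of 10 microglia markers. The astrocyte markers summed to between 51845 and 60949 in the FLX-titled arrays and between 37698 and 63091 in the VEH-titled ones, with VEH 3 the lowest. The oligodendrocyte sums lay between 28181 and 35300 in the FLX-titled and between 20876 and 38504 in the VEH-titled arrays, and the microglia sums between 2046 and 2912 in the FLX-titled and between 1248 and 3259 in the VEH-titled ones. VEH 3 was the lowest in both. No kept marker was at 0 on any array, and Itgam, P2ry12 and Tmem119 of the microglia list were not kept. All 9 interneuron markers were kept, with sums from 33566 to 37716 in the FLX-titled and from 30556 to 38250 in the VEH-titled arrays, and a median difference of 0.39 in pair 3. The 5 of 10 vessel markers that were kept (Flt1, Kcnj8, Pecam1, Tagln and Tek were not) differed instead in pairs 1 and 2, with medians of 0.54 and 0.55 and 5 of 5 positive in each, and had a median of 0.022 in pair 3. Their sums ran from 1532 to 1865 in the FLX-titled and from 1021 to 1450 in the VEH-titled arrays, without overlap. The 9 layer 5 projection neuron markers had medians of 0.13, -0.15 and -0.22 in pairs 1, 2 and 3. Of these 9, 4, 9 and 8 were negative in the 3 pairs. The part of these marker lists in the complex I differences was not tested.

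**Figure D3:**
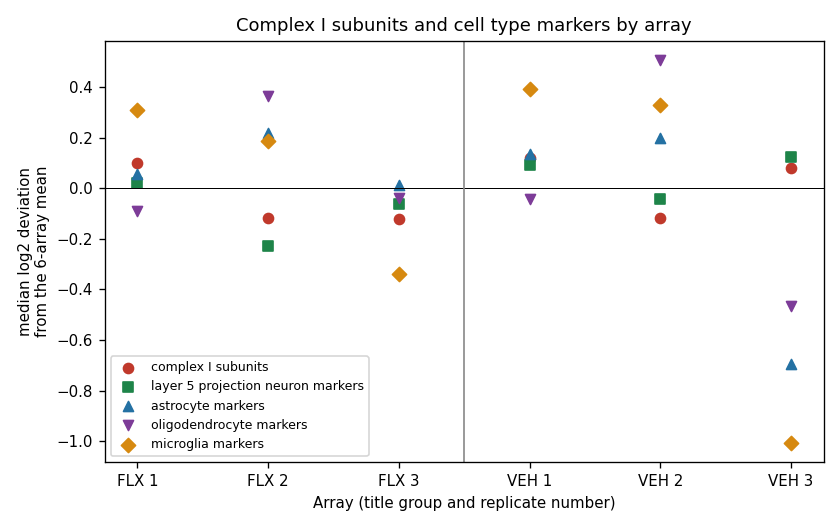
Median log2 deviation from the 6-array mean (vertical axis) of the complex I subunits and of 4 marker lists on each array (horizontal axis), FLX-titled left and VEH-titled right. On VEH 3 the 3 glial lists lie between -0.46 and -1.01, while the subunits and the layer 5 markers lie above 0.

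VEH 3 was the highest of the 4 arrays not numbered 1 for 33 of the 42 genes, or 78.6%, against 29.5% of all genes. Ndufa7 (5752 on VEH 3 against 4142 to 4318 on the other 3), Ndufc2 (21591 against 19489 to 19720) and Ndufb1 (201.2 against 137.5 to 147.7) were among them.

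The second comparison sets the 2 arrays numbered 1 against the other 4, with the title group as a term. Subunit genes lay higher on the arrays numbered 1, and 4 of the 42 genes were called higher and 0 lower at an adjusted p of 0.05 in limma. These were the accessory subunits Ndufa6, Ndufb2 and Ndufa12 and the assembly factor Ndufaf5. The share, 9.52%, stands beside 5.92% of all genes called higher and 6.86% called lower, and beside 6.22% and 9.03% of all probe sets. At an unadjusted p under 0.05 there were 15 of 42, or 35.7%, where 30.2% of all genes were. Positive differences were found for 26 of the 33 subunits. The subunit median was 0.20, where the median of all genes was 0.037. The 9 layer 5 projection neuron markers had a median of 0.19, with 7 positive and 0 called. Both arrays numbered 1 lay above all other 4 for 19 of the 42 genes, or 45.2%, and below them for 2, or 4.76%, where 24.4% and 19.9% of all genes were. The subunit median was 0.22 within the FLX-titled and 0.16 within the VEH-titled arrays, and 34 of the 42 genes, or 81.0%, had the same sign in both, near the 74.7% of all genes. The split was chosen with the first principal component known, so the counts describe how complex I sits in a contrast that touches much of the table.

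Ndufa6 had the largest difference. It is an N-module subunit of the LYR protein family and binds the mitochondrial acyl carrier protein Ndufab1. Its intensity was 7857 and 7408 on arrays FLX 1 and VEH 1, against 3257, 3854, 3447 and 4755 on FLX 2, FLX 3, VEH 2 and VEH 3. The lower array numbered 1 stood 1.56 times above the highest of the others, and the difference was 1.01 ± 0.17 on the log2 scale, a 2.01-fold difference (limma adjusted p = 0.00965). Ndufaf5, an enzyme that hydroxylates an arginine of Ndufs7 in human cells, had 1344 and 1402 on arrays FLX 1 and VEH 1, against 791.2, 671.4, 733.2 and 855.2 on FLX 2, FLX 3, VEH 2 and VEH 3. The groups did not overlap, and the difference was 0.85 ± 0.13 (limma adjusted p = 0.00739).

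Ndufb2, a small subunit of the distal membrane arm, had 12008 and 12212 on arrays FLX 1 and VEH 1, against 6768, 7685, 6908 and 8869 on FLX 2, FLX 3, VEH 2 and VEH 3. Its difference was 0.69 ± 0.14 (limma adjusted p = 0.0207), with a gap of 3139 between the lower array numbered 1 and VEH 3. Ndufa12, the N-module subunit that takes the place of the assembly factor Ndufaf2 late in assembly, had 18032 and 19710.0 on arrays FLX 1 and VEH 1, against 11795, 13748, 14014 and 15107 on FLX 2, FLX 3, VEH 2 and VEH 3. Its difference was 0.47 ± 0.12 (limma adjusted p = 0.043), the smallest of the 4. The sign was the same within each title group for all 4 genes, with 1.15 and 0.87 for Ndufa6 within the FLX-titled and the VEH-titled arrays, 0.88 and 0.82 for Ndufaf5, 0.74 and 0.64 for Ndufb2, and 0.50 and 0.44 for Ndufa12. The count of 4 was 0 without FLX 1 or without VEH 1, where a lone array numbered 1 is left and assumed to vary like the others. It was 2 without FLX 2, 3 without FLX 3 or VEH 2, and 8 without VEH 3. Without any filter on low values it was 1, Ndufaf5. The count over all probe sets moved too. It was 1187 called higher, or 6.22%, with all 6 arrays, and up to 1639 with 1 array left out. The counts of members are therefore not particular to complex I.

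**Figure D4:**
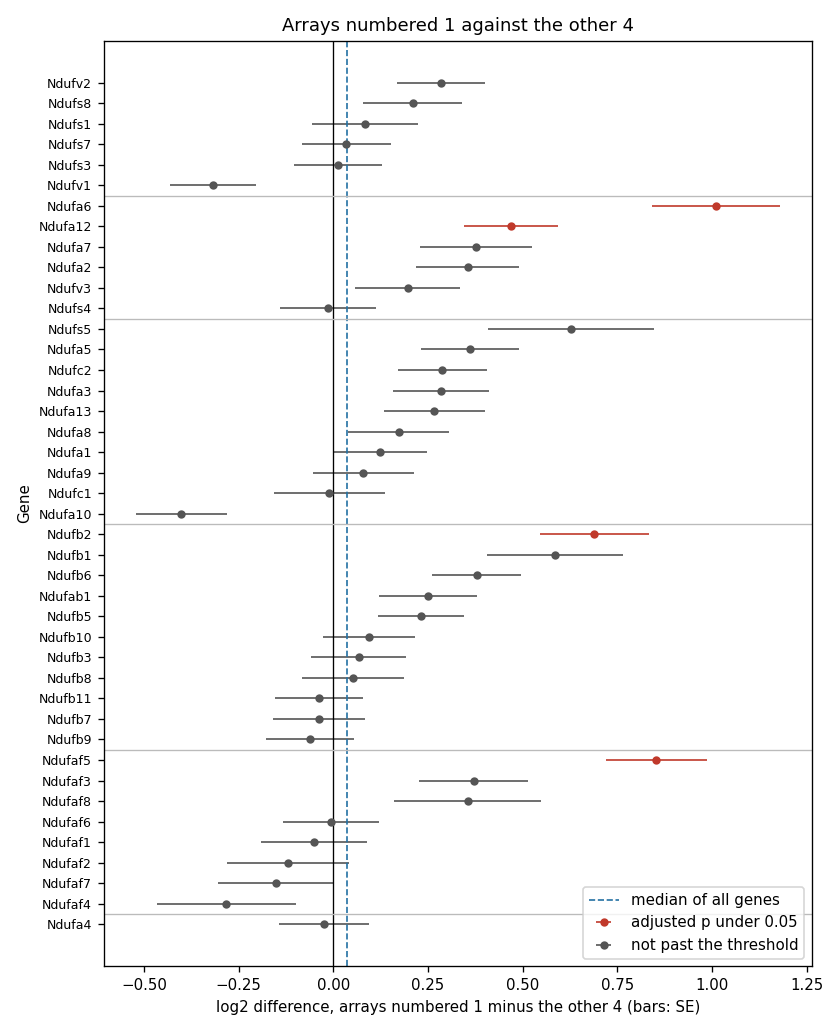
log2 difference between the 2 arrays numbered 1 and the other 4 (horizontal axis, bars are SE from limma) for each of the 42 genes (vertical axis), in the same grouping by place in complex I. The 4 genes past an adjusted p of 0.05 are red, and the dashed line is the median of all genes, 0.037.

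The other subunits with large differences did not pass the test. Ndufs5 had 3708 and 2676 on arrays FLX 1 and VEH 1, against 2083, 1524, 2190.4 and 2486 on FLX 2, FLX 3, VEH 2 and VEH 3. FLX 1 stood far above VEH 1, and the difference was 0.63 ± 0.22 (limma adjusted p = 0.0943). It was 0.20 without FLX 1 and 1.06 without VEH 1. The brighter probe set that joins Ndufs5 to the pseudogene Ndufs5-ps gave 0.18 ± 0.15 (limma adjusted p = 0.437). In the opposite direction, Ndufa10, a membrane-arm subunit related to nucleoside kinases, had 9992 and 9629 on arrays FLX 1 and VEH 1, against 12836, 11890.3, 13934 and 13253 on FLX 2, FLX 3, VEH 2 and VEH 3. Both arrays numbered 1 were the lowest, with a difference of -0.40 ± 0.12 (limma adjusted p = 0.0613). It was called lower under quantile normalization, with log2(value + 32) and without the title group term, while its other kept probe set had the opposite sign, at 0.084 (limma adjusted p = 0.703). Ndufv1, whose values are given above, was likewise lowest on both, with a difference of -0.32 ± 0.11 (limma adjusted p = 0.0982), while its partner Ndufv2 had 0.28 ± 0.12 (limma adjusted p = 0.135). The other kept probe sets of Ndufv1 gave -0.21 and -0.18. Those of Ndufv2 gave 0.15 and, with groups that overlapped, 0.035. The next lowest subunit, Ndufb9, which like Ndufa6 is an LYR protein, had -0.062 ± 0.12 and values of 18937 and 20063 on arrays FLX 1 and VEH 1, against 18832, 20152, 20374 and 22151 on FLX 2, FLX 3, VEH 2 and VEH 3, with groups that overlapped.

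The start-site regions of the 4 called genes and of Ndufa10, the gene with the most negative difference, are printed to show where letters known from respiratory promoters stand in genes that differed most. Each window runs from 250 bases before to 50 bases after the gene's start, from RefSeq on GRCm38.p6, 5′ to 3′ on the gene's strand. The windows are chr15:82354242-82354541 on the minus strand for Ndufa6, chr2:140170396-140170695 on the plus strand for Ndufaf5, chr6:39592315-39592614 on the plus strand for Ndufb2, chr10:94198785-94199084 on the plus strand for Ndufa12 and chr1:92473709-92474008 on the minus strand for Ndufa10. Capitals mark matches on either strand to GCGCA, any 1 base and GCGC in a row (nuclear respiratory factor NRF1), CCGGAA (ETS factors such as GABP) or AAGATGGCG (YY1).
Ndufa6: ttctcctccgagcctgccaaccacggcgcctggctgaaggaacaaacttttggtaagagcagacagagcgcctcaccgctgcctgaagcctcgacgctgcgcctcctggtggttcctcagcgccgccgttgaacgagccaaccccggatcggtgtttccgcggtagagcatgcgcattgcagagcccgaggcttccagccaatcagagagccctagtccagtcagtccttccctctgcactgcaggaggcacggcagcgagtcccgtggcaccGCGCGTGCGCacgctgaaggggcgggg
Ndufaf5: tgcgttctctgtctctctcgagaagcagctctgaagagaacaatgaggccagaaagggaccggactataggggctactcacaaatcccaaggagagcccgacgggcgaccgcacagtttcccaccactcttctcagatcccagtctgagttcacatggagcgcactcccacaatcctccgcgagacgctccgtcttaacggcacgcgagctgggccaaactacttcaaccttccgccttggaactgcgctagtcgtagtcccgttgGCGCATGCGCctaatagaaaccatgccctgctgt
Ndufb2: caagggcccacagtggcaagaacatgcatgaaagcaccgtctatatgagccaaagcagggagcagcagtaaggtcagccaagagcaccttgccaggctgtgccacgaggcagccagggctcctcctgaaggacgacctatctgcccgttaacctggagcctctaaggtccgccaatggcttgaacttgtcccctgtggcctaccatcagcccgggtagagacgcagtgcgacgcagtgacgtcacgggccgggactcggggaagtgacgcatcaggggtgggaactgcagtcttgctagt
Ndufa12: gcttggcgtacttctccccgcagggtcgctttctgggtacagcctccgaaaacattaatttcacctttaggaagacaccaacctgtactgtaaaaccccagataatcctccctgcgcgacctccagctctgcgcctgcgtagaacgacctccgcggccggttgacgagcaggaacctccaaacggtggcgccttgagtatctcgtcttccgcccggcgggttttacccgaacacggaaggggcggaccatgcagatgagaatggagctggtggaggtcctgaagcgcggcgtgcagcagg
Ndufa10: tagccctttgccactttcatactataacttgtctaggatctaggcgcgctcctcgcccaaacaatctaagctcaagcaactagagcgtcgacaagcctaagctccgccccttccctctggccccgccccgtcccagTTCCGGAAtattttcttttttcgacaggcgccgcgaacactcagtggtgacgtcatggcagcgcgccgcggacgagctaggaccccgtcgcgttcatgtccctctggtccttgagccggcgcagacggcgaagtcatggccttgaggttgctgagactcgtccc

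The NRF1 letters stood in the windows of Ndufa6 and Ndufaf5, while those of Ndufb2 and Ndufa12 held none of the 3 motifs. In Ndufa10 the capitals are 2 overlapping CCGGAA matches on opposite strands. A window was given for 38 of the 42 genes. The NRF1 letters were in the windows of 6 of them, or 15.8%, and in those of 5.19% of all 27025 genes with a window. Those 6 were Ndufa5, Ndufa6, Ndufa8, Ndufaf4, Ndufaf5 and Ndufs5, whose differences between the arrays numbered 1 and the other 4 ran from -0.28 to 1.01. The 32 genes without the letters ran from -0.40 to 0.69. CCGGAA was found for 12 of 38 genes, or 31.6%, and for 16.7% of all genes with a window. AAGATGGCG was found for 5, or 13.2%, and for 1.64% of all genes with a window. The 27025 genes were not limited to the 10830 measured here, while the 42 genes had passed the intensity filter. The shares are therefore from unlike sets of genes. In Ndufaf5 the NRF1 letters read the same on both strands and count as 2 matches at 1 place. The genes to print were picked for their differences, and a match is a description of letters, not of binding.

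By place in the enzyme, the N module's accessory subunits had the highest median of the groups, 0.37 over 6 genes, of which 2 were called higher and 5 lay above without overlap. The median was 0.22 over 10 accessory subunits of the Q module and proximal arm, with 0 called, and 0.095 over 11 of the distal arm, with 1 called. It was 0.059 over the 6 core subunits, where 0 were called, 1 lay above with no overlap (Ndufv2) and 1 below (Ndufv1). Over all genes 5.92% were called higher, 24.4% lay above without overlap and 19.9% below. The differences between these groups of genes were not tested.

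The assembly factors did not move as 1 group. The roles given for them are known mainly from human cells. Ndufaf3 and Ndufaf4 act together on the Q module. By their brightest probe sets their differences had opposite signs, while the second kept probe set of Ndufaf4 gave 0.24, the sign of Ndufaf3. Ndufaf3 had 2092 and 1833 on arrays FLX 1 and VEH 1, against 1362, 1404, 1565 and 1759 on FLX 2, FLX 3, VEH 2 and VEH 3, a difference of 0.37 ± 0.14 (limma adjusted p = 0.121) with no overlap. That difference was 0.14 without FLX 1 and 0.60 without VEH 1. Ndufaf4 had 932.9 and 852.1 on arrays FLX 1 and VEH 1, against 945.5, 1190.4, 917.4 and 1341 on FLX 2, FLX 3, VEH 2 and VEH 3, and -0.28 ± 0.18 (limma adjusted p = 0.328). Its high arrays were FLX 3 and VEH 3, and without VEH 3 the difference was -0.15. Ndufaf8, which stabilises Ndufaf5, had 2572 and 2744 on arrays FLX 1 and VEH 1, against 1707, 2396, 1777 and 2560.3 on FLX 2, FLX 3, VEH 2 and VEH 3 and a difference of 0.36 ± 0.19 (limma adjusted p = 0.249).

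The other 4 assembly factors lay between -0.15 and -0.0055 and overlapped. Ndufaf1, part of the complex that builds the membrane arm, had 957.0 and 1016 on arrays FLX 1 and VEH 1, against 1135, 873.5, 1064 and 1032 on FLX 2, FLX 3, VEH 2 and VEH 3. Ndufaf2, the chaperone related to Ndufa12, had 1582 and 1337 on arrays FLX 1 and VEH 1, against 1347, 1772, 1487 and 1751 on FLX 2, FLX 3, VEH 2 and VEH 3. Ndufaf6, an early factor of the Q module, had 505.5 and 553.4 on arrays FLX 1 and VEH 1, against 516.3, 576.0, 490.0 and 545.2 on FLX 2, FLX 3, VEH 2 and VEH 3, a narrow range over all 6 arrays. Ndufaf7, a methyltransferase, had 745.7 and 789.3 on arrays FLX 1 and VEH 1, against 1032, 760.1, 807.5 and 835.1 on FLX 2, FLX 3, VEH 2 and VEH 3, with FLX 2 above the other 5.

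For 21 of the 42 genes more than 1 probe set was kept, and the dimmer one often differed more between the arrays numbered 1 and the other 4. The dimmest probe set had the more positive difference in 17 of 21 genes, or 81.0%, against 47.3% of the 4406 genes of the whole table with at least 2 kept probe sets. The median was 0.39 for the dimmest and 0.23 for the brightest probe sets of the 21, against 0.013 and 0.036 over the 4406. Of the 21 dimmest probe sets, 7 were called higher and 0 lower at an adjusted p of 0.05, where 6.76% of the 4406 were called higher and 12.2% lower. Of the 21 brightest 2 were called higher, or 9.52%, where 5.95% of the 4406 brightest were. Intensities of different probe sets share no scale, so a dim probe set is not a low transcript. Why the probe sets of a gene differ was not tested.

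The acyl carrier protein gene Ndufab1, which serves both complex I and mitochondrial fatty acid synthesis, shows the gap. Its dimmest probe set differed by 0.94 ± 0.15 (limma adjusted p = 0.00732) and its brightest by 0.25 (limma adjusted p = 0.228). The dimmest probe set was also called, and the brightest not, for Ndufc2 (0.74 ± 0.19 against 0.29), Ndufa5 (0.73 ± 0.16 against 0.36) and Ndufaf8 (0.71 ± 0.20 against 0.36). The same held for Ndufs8 (0.57 ± 0.13 against 0.21) and Ndufb6 (0.49 ± 0.13 against 0.38). Ndufb2 was called by both of its probe sets. Ndufa12 was called by its brightest probe set and not by the dimmest of its 3, at 0.42 ± 0.16 (limma adjusted p = 0.107). Ndufa6 and Ndufaf5 each had 1 probe set, so no such comparison was possible for them. Of the 7 kept probe sets that name an Nduf gene and another, 2 were called higher, where 6.22% of all probe sets were.

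**Figure D5:**
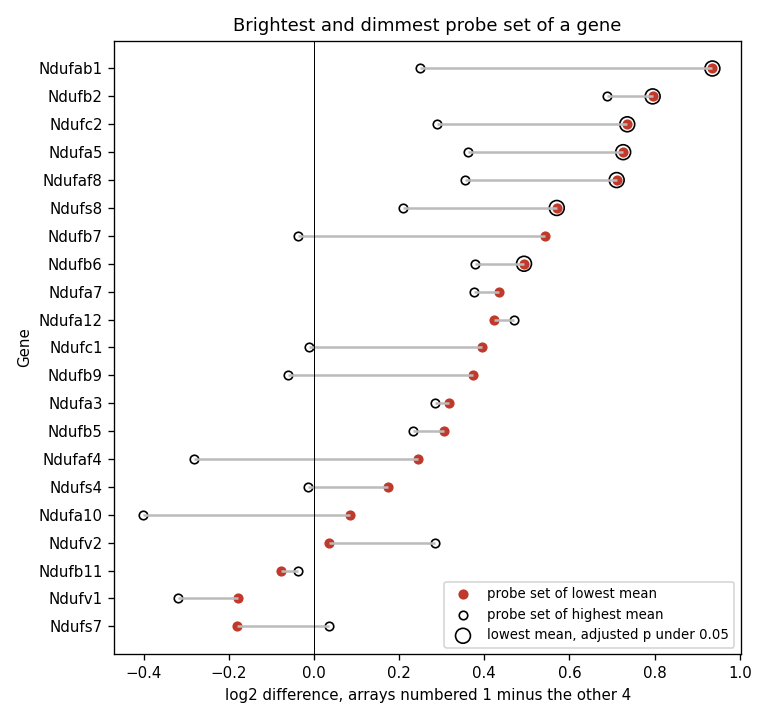
log2 difference between the arrays numbered 1 and the other 4 (horizontal axis) for the dimmest (filled) and brightest (open) kept probe set of each of the 21 genes with more than 1 (vertical axis). Ringed points are dimmest probe sets past an adjusted p of 0.05, and in 17 of 21 genes the filled point lies to the right.

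Genes that work with complex I are given by counts from lists that are not part of the 42. Of 12 complex I assembly genes without the Nduf name, 11 were measured, with a median FLX minus VEH difference of 0.049 and 0 called. Between the arrays numbered 1 and the others their median was 0.15, with 1 called higher and 1 lower. The 8 complex II genes had medians of -0.13 and 0.43, with 0 called in the first comparison and 3 called higher in the second. The 33 measured subunit genes of complexes III and IV and of ATP synthase had medians of -0.064 and 0.13, with 0 called in the first and 5 called higher and 0 lower in the second. In pair 3, 29 of those 33 were negative, with a median of -0.14, beside -0.16 for the complex I subunits. The 13 regulators of mitochondrial biogenesis had medians of -0.0030 and 0.00064, with 0 called in the first and 1 higher and 2 lower in the second. Over all genes the medians were -0.0068 and 0.037, with 0% called in the first and 5.92% higher and 6.86% lower in the second. Whether complex I differed from these lists was not tested.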

How the data were processed

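The authors deposited 1 GCRMA intensity per probe set and array on a linear scale, per the submitters' processing notes. GCRMA uses probe sequence for its background model and then normalizes between arrays, which removes array-wide shifts; its version is not given in the sources used here. RNA was amplified before labelling, per the labels' protocols. The design text speaks of averaged replicates, but the table has a column for each of the 6 arrays, and these were used. A probe set list that the design text recommends was not used here. Symbols came from the platform annotation. Of 45037 probe sets other than controls, 19073 had a title-group mean of at least 50. Log2 intensities were fitted with limma 3.58.1 in R 4.3.3 on all 19073, two-sided, with Benjamini-Hochberg adjustment over them. The fits were FLX minus VEH without other terms, and arrays numbered 1 minus the others with the title group as a term. The fitting code was first run on simulated data with known changes. Genes were named, with values on every array, where they were called, among the 3 most positive or 3 most negative subunits of a comparison, core subunits, assembly factors or Ndufa4; others are named after their values were seen. Members and gene lists were chosen with earlier results of these data known. As a check of the titles' numbers, deviations from group means correlated most between arrays of equal number, at 0.74, 0.60 and 0.50 for numbers 1, 2 and 3. Arrays of unequal number correlated at up to 0.26, for FLX 3 with VEH 2. For number 3 the pairing was the least clear: log2 intensities of FLX 3 differed with an SD of 0.284 from FLX 2 and 0.289 from VEH 3. No array repeats another, since between any pair the log2 intensities differed with an SD of 0.23 or more.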

Additional observations from a re-analysis of the deposited data

Results flagged for a closer look

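On 3 genes VEH 3 stood far above the other arrays not numbered 1, a gap that took up most of the range of those 4 arrays. The intensities on VEH 3 were 5752 for Ndufa7, 21591 for Ndufc2 and 201.2 for Ndufb1. These were 3 of 42 genes, or 7.14%. Over all genes VEH 3 stood above the others in this way for 1.26%, and any of the 4 arrays stood apart in either direction for 5.55%. By chance about 1 gene in 20 would have any array stand apart so.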

How the results depend on the processing

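For FLX minus VEH, 0 probe sets and 0 members were called under every alternative run, the replicate block included. With the block the subunit median stayed -0.087 and no call changed. Differences that changed sign were all uncalled and under 0.15 in size. With the mean over a gene's probe sets they were -0.024 for Ndufc1 and -0.099 for Ndufs8, and with the dimmest probe set, an alternative chosen after seeing the data, -0.086 and -0.14. Quantile normalization gave 0.0022 for Ndufv1, leaving out pair 1 -0.090 for Ndufs8, and leaving out pair 2 -0.057 for Ndufc1. With 1 array left out the ranges were -0.056 to 0.19 for Ndufa5, -0.071 to 0.14 for Ndufc1, -0.10 to 0.098 for Ndufs8 and -0.11 to 0.099 for Ndufv1. For the arrays numbered 1 against the others, 1187 probe sets were called higher and 1723 lower. The counts were 588 and 868 with 1 mean per gene, where fewer features were tested, and 630 and 1068 without a filter, where 1 member was called. With 1 array left out they ran from 13 to 1639 and from 266 to 1910, and members called higher from 0 to 8. Exactly 1 member, Ndufa10, was called lower with log2(value + 32), under quantile normalization and without the title group term. With the dimmest probe set 9 members were called higher. Of the dimmest probe sets of all 4406 genes with at least 2 kept, 6.76% were called higher. The subunit median was then 0.31 and the assembly factor median 0.12, and Ndufa10, Ndufaf4 and Ndufb9 turned to 0.084, 0.24 and 0.37. Ndufb9 was 0.16 with the mean over its probe sets. The cause of these changes was not tested.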
